A study of Mus musculus with 6 samples.

Results

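The transcription factor p53, encoded in the mouse by Trp53, and 9 genes that it is known to switch on were followed in small-intestinal organoids exposed to arachidonic acid. The genes were Mdm2, Ccng1, Phlda3, Sesn1, Trp53inp1, Zmat3, Bax, Bbc3 and Eda2r. These 10 genes were chosen by symbol, matched to their Ensembl identifiers among 53953 listed rows, and all 10 passed the filter of a mean of at least 1 FPKM, as did 12913 genes in all. FPKM is the number of sequenced fragments scaled by gene length and by the depth of the library.

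Organoids are cultures grown from intestinal crypts that keep the stem cells and differentiated cells of the gut lining. The treated group comprised 3 libraries from organoids that were given arachidonic acid, a polyunsaturated omega-6 fatty acid, during 3 days and then passaged, and the vehicle group 3 libraries from organoids given 0.1% ethanol, the solvent of the fatty acid. Both groups were wild-type C57BL/6 cultures of the proximal small intestine, grown in Matrigel at passage 3 to 5, with total RNA taken at day 3 after passaging. The sources used here give neither the dose of arachidonic acid nor the age, sex and number of the mice. Whether replicate libraries stem from different mice or wells is likewise not stated, and the p-values reflect variation among these 6 libraries that could be technical.

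p53 is present at low protein levels in unstressed cells because MDM2, a ubiquitin ligase, marks it for destruction. DNA damage and other stresses stabilise the protein, which then activates genes that halt the cell cycle, repair DNA, adjust metabolism or start apoptosis, and also Mdm2 itself, which closes a negative feedback loop. Because much of this control acts on the protein, the mRNA of Trp53 and the mRNAs of its targets are separate readouts. In the mouse intestine p53 and its target PUMA, encoded by Bbc3, are known for the death of crypt cells after irradiation.

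The values implied 50.8, 35.6 and 48.6 M fragments (M, 1e+06) in arachidonic acid replicates 1, 2 and 3 and 36.6 to 38.5 M in the vehicle libraries. Arachidonic acid replicate 1 stood apart from its group. A principal component analysis of the tested genes gave a leading component with 85.2% of the variance, on which it lay at 10.2, against 58.1 and 54.6 for replicates 2 and 3 and -41.6 to -40.4 for the vehicle libraries. Of 13 epithelial markers 12 were well expressed, while the goblet cell mucin Muc2 reached at most 2.45 FPKM. The 13 summed to 4806, 5567 and 5074 FPKM with arachidonic acid and to 3568 to 3620 FPKM with vehicle. Within them the keratin genes Krt8, Krt18 and Krt19 and the enterocyte marker Alpi were called higher, at 2.15, 2.83, 1.96 and 3.53 times the vehicle mean. Epcam, the intestinal factors Cdx1 and Cdx2, the Paneth cell marker Lyz1 and the enteroendocrine marker Chga were called lower, at 0.659, 0.445, 0.786, 0.352 and 0.213 times the vehicle mean, and Cdh1, Vil1 and Lgr5 were not called. The fibroblast, endothelial and smooth muscle markers summed to less than 1 FPKM in each library, with Lum and Cdh5 listed at 0 throughout, and the neuron and glia markers likewise, with Sox10 at 0. Of 6 immune markers, Ptprc reached at most 0.0474 FPKM, but Cd68, which also marks lysosomes, was at 3.52, 23.9 and 16.8 FPKM with arachidonic acid and at 2.14, 2.02 and 1.53 FPKM with vehicle. Mitochondrially encoded transcripts took 2.21% to 2.66% of fragments with arachidonic acid and 3.18% to 4.17% with vehicle. The part of these differences in the results below was not tested.

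Of the 10 genes 7 were higher in the arachidonic acid organoids, 1 was lower and 2 did not pass the test. Mdm2, Ccng1, Zmat3, Eda2r, Phlda3, Trp53inp1 and Bax rose, by 2.01 to 2.52 times in mean FPKM, Sesn1 fell, and neither Trp53 nor Bbc3 was called. The test was limma on log2(FPKM + 1), two-sided, with Benjamini-Hochberg adjustment over all 12913 genes and a threshold of 0.05. At that threshold 20.8% of all tested genes were called higher and 19.4% lower, 40.2% in either direction. The log2 fold changes of the 7 genes lay between 0.99 and 1.26, beside a median of -0.03 over all tested genes. For 9 of the 10 genes no arachidonic acid value fell within the range of the vehicle values, beside 55.0% of all tested genes. In bulk RNA, fewer cells of a type and less RNA per cell cannot be told apart.

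**Figure D1:**
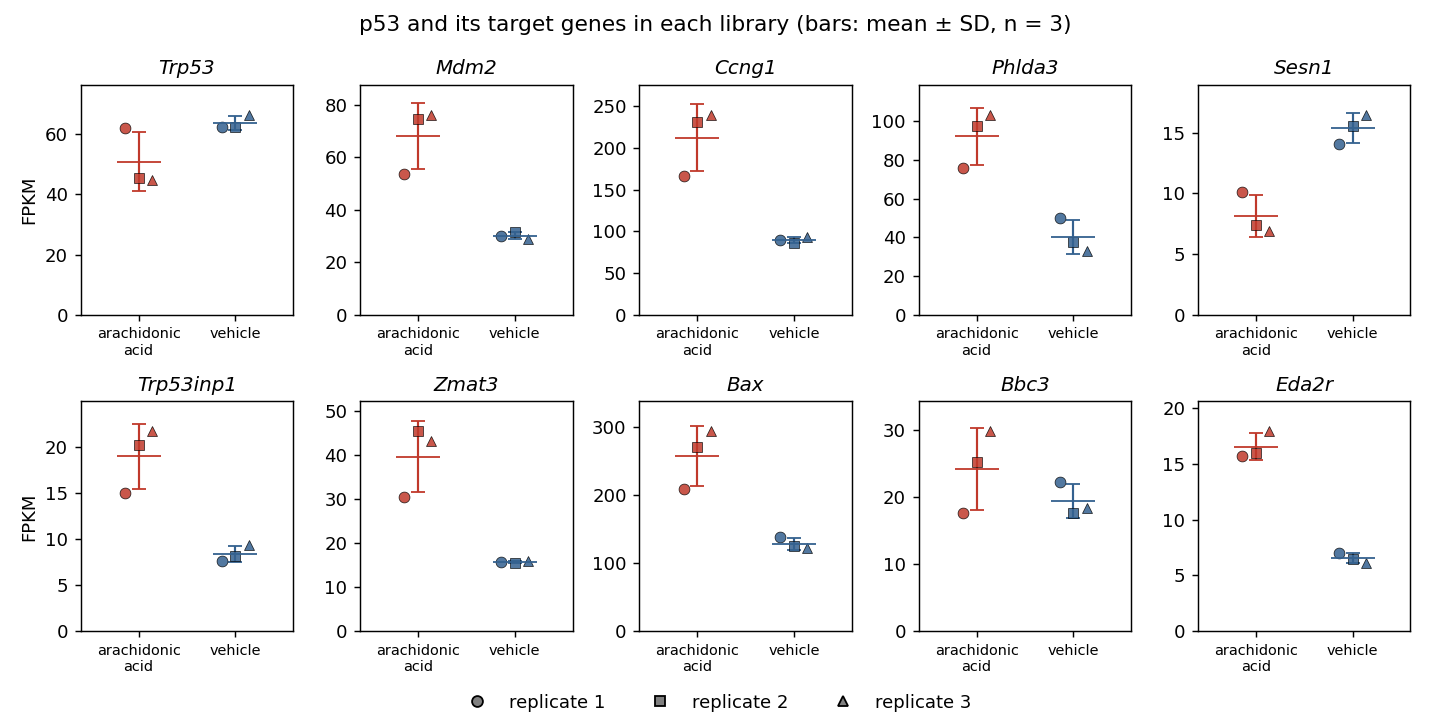
FPKM of Trp53 and 9 of its target genes in each of 6 libraries, arachidonic acid in red and vehicle in blue, with replicates as circles, squares and triangles and bars for the mean ± SD of 3 libraries. In 7 of the panels every arachidonic acid library lies above every vehicle library, and replicate 1 of arachidonic acid is the lowest of its group in each of these 7.

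Trp53 (ENSMUSG00000059552) was at 62.1, 45.5 and 44.8 FPKM with arachidonic acid and at 62.5, 62.4 and 66.4 FPKM with vehicle. Arachidonic acid replicate 1 was level with the lowest vehicle libraries, while replicates 2 and 3 were lower than all others. The means were 50.8 ± 9.77 FPKM with arachidonic acid and 63.8 ± 2.26 FPKM with vehicle (SD, here and below, n = 3 for each group). The log2 fold change was -0.34 (SE 0.13) and did not pass the test (adjusted p = 0.076). It passed without arachidonic acid replicate 1, at -0.49 (adjusted p = 0.00020), and with quantile normalization, at -0.41 (adjusted p = 0.040). Trp53-ps, a pseudogene of Trp53 that could share its reads, was listed at 0 in all 6 libraries. Whether fragments that match both were counted for Trp53 or dropped was not tested.

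The feedback gene Mdm2 (ENSMUSG00000020184), which encodes the ubiquitin ligase that degrades p53, was at 53.6, 74.4 and 76.1 FPKM with arachidonic acid and at 29.9, 31.7 and 29.0 FPKM with vehicle. All 3 treated libraries were above all 3 vehicle libraries. Its means were 68.0 ± 12.5 FPKM with arachidonic acid and 30.2 ± 1.38 FPKM with vehicle, and its log2 fold change was 1.13 (SE 0.14, adjusted p = 0.0021). Trp53 was the more abundant of the pair in every vehicle library and in arachidonic acid replicate 1, and Mdm2 in arachidonic acid replicates 2 and 3. The ratio of Mdm2 to Trp53 FPKM was 0.864, 1.63 and 1.70 with arachidonic acid and 0.478, 0.507 and 0.436 with vehicle. Mdm4, the MDM2 relative that blocks p53 without a strong ligase activity of its own, was not called (77.8 ± 12.5 FPKM with arachidonic acid and 67.9 ± 3.44 FPKM with vehicle, adjusted p = 0.27). Against Mdm4, Mdm2 stood at 0.843, 0.855 and 0.919 with arachidonic acid and at 0.456, 0.441 and 0.437 with vehicle, and on this ratio arachidonic acid replicate 1 lay close to the other two.

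**Figure D2:**
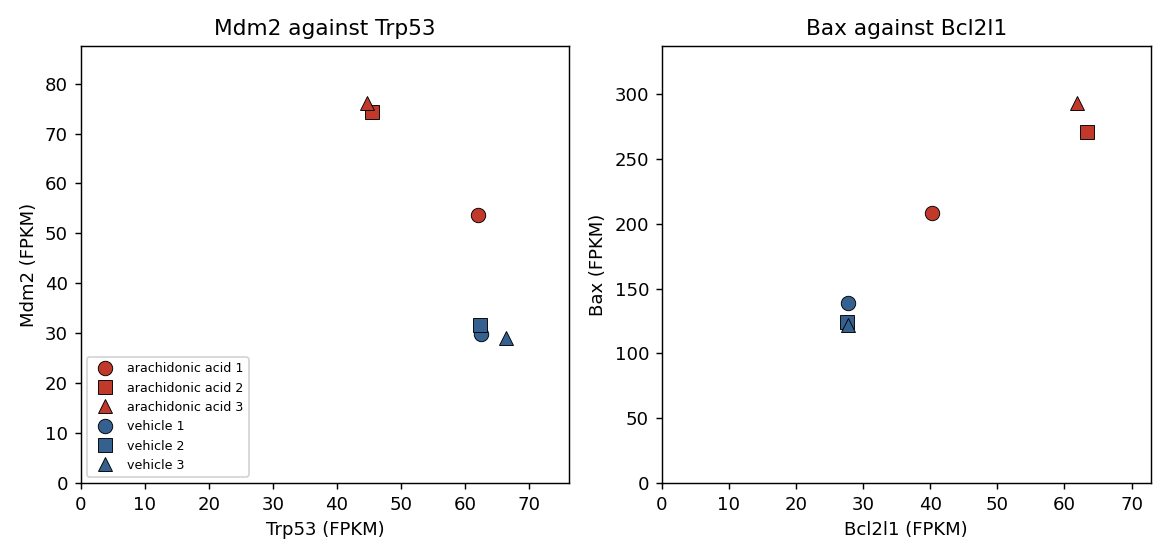
Left, Mdm2 against Trp53, and right, Bax against Bcl2l1, in FPKM in each of 6 libraries, arachidonic acid in red and vehicle in blue. On the left arachidonic acid replicates 2 and 3 have more Mdm2 than Trp53, replicate 1 keeps the vehicle level of Trp53 (62.1 FPKM) with more Mdm2 than vehicle, and on the right Bax and Bcl2l1 are both higher with arachidonic acid.

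Ccng1 (ENSMUSG00000020326) encodes cyclin G1, an atypical cyclin that brings the phosphatase PP2A to MDM2. It was at 167, 232 and 239.8 FPKM with arachidonic acid and at 90.3, 86.1 and 92.9 FPKM with vehicle. The treated libraries were all higher, and the vehicle libraries lay close together. The means were 213 ± 40.1 and 89.8 ± 3.45 FPKM with arachidonic acid and vehicle, and the log2 fold change was 1.22 (SE 0.14, adjusted p = 0.0018).

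Phlda3 (ENSMUSG00000041801) encodes a small protein whose pleckstrin homology domain binds membrane phosphoinositides and so competes with the kinase AKT. It was at 75.7, 97.7 and 103 FPKM with arachidonic acid and at 49.9, 37.4 and 33.2 FPKM with vehicle. The groups did not overlap, although its vehicle libraries were the most uneven of the 10 genes, with a coefficient of variation of 21.6%. Its log2 fold change was 1.19 (SE 0.18, adjusted p = 0.0037).

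Sesn1 (ENSMUSG00000038332), a sestrin that restrains the growth kinase complex mTORC1, was the gene that fell. It was at 10.1, 7.43 and 6.88 FPKM with arachidonic acid and at 14.1, 15.6 and 16.5 FPKM with vehicle. Every treated library was below every vehicle library, with a log2 fold change of -0.85 (SE 0.14, adjusted p = 0.0056). Of the other sestrin genes, Sesn3 fell, with 17.1 ± 3.81 FPKM with arachidonic acid and 27.8 ± 1.98 FPKM with vehicle (log2 fold change -0.69, adjusted p = 0.013), a call lost without vehicle replicate 1 (adjusted p = 0.058). Sesn2, named after its values were seen, was at 12.6, 20.7 and 22.3 FPKM with arachidonic acid and at 12.6, 12.4 and 9.95 FPKM with vehicle and did not pass (log2 fold change 0.60, adjusted p = 0.063).

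Trp53inp1 (ENSMUSG00000028211) encodes a stress-induced protein that promotes p53-dependent cell death and takes part in autophagy. It was at 15.0, 20.2 and 21.6 FPKM with arachidonic acid and at 7.59, 8.14 and 9.34 FPKM with vehicle. All treated libraries were higher, and the log2 fold change was 1.08 (SE 0.15, adjusted p = 0.0029). Zmat3 (ENSMUSG00000027663) encodes a zinc finger protein that binds RNA and influences splicing. It was at 30.5, 45.3 and 43.1 FPKM with arachidonic acid and at 15.7, 15.5 and 16.1 FPKM with vehicle. Zmat3 had the tightest vehicle values of the 10 genes, with a coefficient of variation of 1.86%, and a log2 fold change of 1.26 (SE 0.15, adjusted p = 0.0019).

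Bax, Bbc3 and Eda2r act in apoptosis and death receptor signalling. Bax (ENSMUSG00000003873), the effector that permeabilises the outer mitochondrial membrane, was at 208, 271 and 293 FPKM with arachidonic acid and at 139, 125 and 122 FPKM with vehicle. It was the most abundant of the 10 genes in every library, and its log2 fold change was 0.99 (SE 0.13, adjusted p = 0.0028). In the GENCODE M21 annotation a second gene model, Gm45808, overlaps exons of Bax on the same strand. Gm45808 was listed at 0 in all libraries. Whether fragments from the shared exons were counted for Bax or dropped was not tested.

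Bbc3 (ENSMUSG00000002083), which encodes PUMA, a BH3-only protein that frees BAX and BAK from their inhibitors, was at 17.7, 25.3 and 29.8 FPKM with arachidonic acid and at 22.2, 17.6 and 18.4 FPKM with vehicle. Arachidonic acid replicate 1 lay among the vehicle libraries and replicates 2 and 3 above them. The log2 fold change was 0.28 (SE 0.19) and did not pass the test (adjusted p = 0.26), while without arachidonic acid replicate 1 it was 0.49 and passed (adjusted p = 0.0068). The difference between the changes of Bax and Bbc3 was not tested. The ratio of Bax to Bbc3 FPKM was 11.8, 10.7 and 9.85 with arachidonic acid and 6.24, 7.08 and 6.62 with vehicle.

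Eda2r (ENSMUSG00000034457) encodes a receptor of the tumour necrosis factor family for the ligand ectodysplasin A2. It was at 15.7, 16.0 and 17.9 FPKM with arachidonic acid and at 7.05, 6.50 and 6.12 FPKM with vehicle. Of the genes that rose it was the one for which arachidonic acid replicate 1 lay closest to replicates 2 and 3. Its log2 fold change was 1.21 (SE 0.09, adjusted p = 0.00058), the smallest p among the 10.

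**Figure D3:**
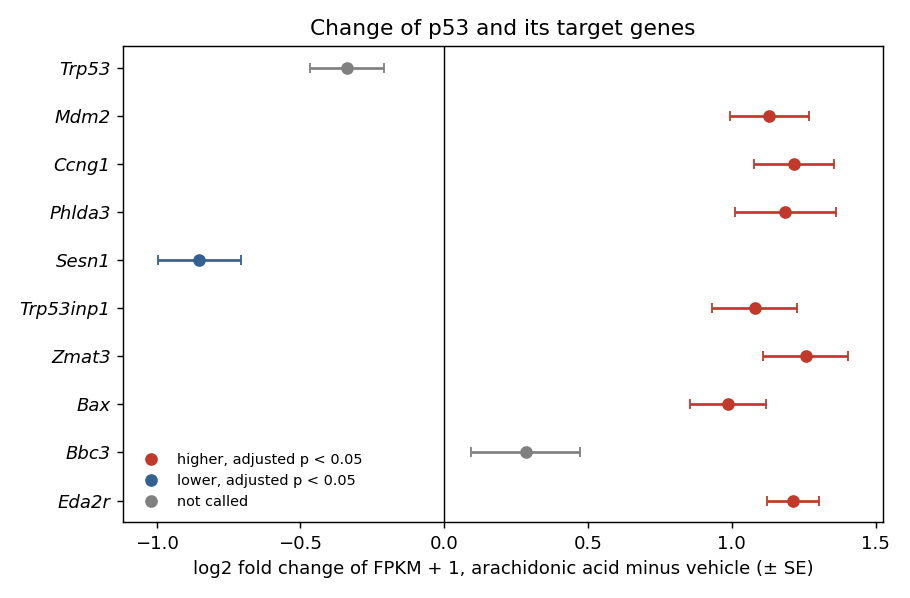
Log2 fold change of FPKM + 1, arachidonic acid minus vehicle, with its SE from limma for Trp53 and 9 of its targets, n = 3 libraries per group. The 7 genes called higher lie between 0.99 and 1.26, Sesn1, called lower, at -0.85, and Trp53 at -0.34 and Bbc3 at 0.28 were not called.

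The distance of arachidonic acid replicate 1 from its group was expressed as a position, 0 at the vehicle mean and 1 at the mean of arachidonic acid replicates 2 and 3, in FPKM. For the 7 genes called higher the median position was 0.53, and 6 of them lay between 0.52 and 0.59. Eda2r stood apart at 0.88. Sesn1 was at 0.64 and Trp53 at 0.09, and Bbc3, at -0.21, lay on the far side of the vehicle mean. Without replicate 1 all 10 genes were called, 8 higher and 2 lower, beside 27.5% of all genes tested in that setting higher and 32.4% lower (59.8% in either direction), and without any other single library the counts were 7 higher and 1 lower, as with all 6. The 2 genes added were Bbc3 and Trp53. The coefficient of variation was larger with arachidonic acid than with vehicle for 9 of the 10 genes, the exception being Phlda3 (15.9% with arachidonic acid and 21.6% with vehicle).

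By FPKM, which is per length, the order of the means with arachidonic acid was Bax, Ccng1, Phlda3, Mdm2, Trp53, Zmat3, Bbc3, Trp53inp1, Eda2r and Sesn1. Neighbours in this order overlapped in their library values except between Ccng1 and Phlda3, Zmat3 and Bbc3, and Eda2r and Sesn1. With vehicle the order was Bax, Ccng1, Trp53, Phlda3, Mdm2, Bbc3, Zmat3, Sesn1, Trp53inp1 and Eda2r, and only Zmat3 and Sesn1, with means of 15.8 and 15.4 FPKM, overlapped as neighbours. Sesn1 was the least abundant of the 10 with arachidonic acid, at 8.16 ± 1.75 FPKM, and ranked above Trp53inp1 and Eda2r with vehicle, at 15.4 ± 1.21 FPKM. The fewest fragments behind a value were 538, for Eda2r in vehicle replicate 3.

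p53 binds DNA as a tetramer, through pairs of a half-site of 10 bases with the core C, 2 bases of A or T, and G. RefSeq promoter windows of the GRCm38.p6 build, from 250 bases before to 50 bases after a start, were found for 8 of the 10 genes, with 11 windows in all. An exact match to the p53 half-site pattern was present in 5 of the 11 windows, against 8.36% of all 32851 windows. The 5 were windows of Bax, Mdm2, Ccng1, Trp53 and Sesn1. A stretch that matches this pattern on the strand of the gene also matches it on the opposite strand, where its letters can differ. A pair of half-sites with a gap of 0 to 13 bases was in none of the 11 and in 0.0731% of all windows. The match was therefore held both by genes that rose and by Sesn1, which fell, and the windows of Phlda3, Eda2r and Bbc3 did not hold these letters. The half-sites differ in their letters and match only the pattern. Sequence outside the windows, and stretches that match the pattern in part, were not searched. Binding of p53 to these stretches was not measured. The stretches that hold them are shown so that the letters can be compared, 5′ to 3′ on the strand of the gene, with the half-site in capitals.
Mdm2 (chr10:117710895-117710984, minus strand, half-site from 186 bases before the start): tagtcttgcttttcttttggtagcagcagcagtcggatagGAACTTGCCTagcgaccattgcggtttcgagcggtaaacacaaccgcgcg
Ccng1 (chr11:40755422-40755511, minus strand, from 185 bases before the start): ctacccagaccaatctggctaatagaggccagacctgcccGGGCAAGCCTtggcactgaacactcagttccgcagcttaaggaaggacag
Bax (chr7:45467050-45467139, minus strand, from 201 bases before the start): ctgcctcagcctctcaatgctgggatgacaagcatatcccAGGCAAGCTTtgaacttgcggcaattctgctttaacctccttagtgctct
Sesn1 (chr10:41887226-41887315, plus strand, from 173 bases before the start of a downstream promoter): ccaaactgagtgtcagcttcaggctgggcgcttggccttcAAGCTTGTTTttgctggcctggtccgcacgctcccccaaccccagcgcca
Trp53 (chr11:69580274-69580303, plus strand, from 75 bases before the start): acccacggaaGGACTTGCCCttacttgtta

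The wider pathway was described through 5 lists, of which 71 of 81 genes were tested. With arachidonic acid 28 of the 71 were higher and 11 lower, beside 20.8% and 19.4% of all tested genes. Without arachidonic acid replicate 1 these counts were 36 and 17, beside 27.5% and 32.4% of all genes tested in that setting. Without any other single library they were 22 to 24 and 4 to 5. Cdkn1a (ENSMUSG00000023067), which encodes the cyclin-dependent kinase inhibitor p21 and is the best known arrest gene downstream of p53, was at 202, 440.2 and 419 FPKM with arachidonic acid and at 85.8, 87.3 and 69.9 FPKM with vehicle. Its log2 fold change of 2.04 (SE 0.29, adjusted p = 0.0034) was above that of each of the 7 genes that rose. Replicate 1 of arachidonic acid was again the lowest of its group.

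Of the 17 tested arrest and growth targets 10 rose, 2 fell and 5 did not pass, with a median log2 fold change of 1.07. The share called was 70.6%, beside 40.2% of all tested genes. Of the 17, 2 averaged less than 1 FPKM with vehicle and passed the filter through the arachidonic acid libraries. Epha2, an ephrin receptor kinase, was at 58.2, 124.8 and 116 FPKM with arachidonic acid and at 13.4, 15.1 and 12.5 FPKM with vehicle (log2 fold change 2.71, adjusted p = 0.0013). Gadd45b, a stress sensor that acts on MAP kinase signalling, was at 61.5 ± 9.48 FPKM with arachidonic acid and 28.5 ± 1.72 FPKM with vehicle (adjusted p = 0.0016). Beside Sesn3, the antiproliferative gene Btg2 fell, with 34.4 ± 1.18 FPKM with arachidonic acid and 40.1 ± 1.73 FPKM with vehicle (log2 fold change -0.21, adjusted p = 0.038). The Btg2 call was lost without each single library other than arachidonic acid replicate 1 (highest adjusted p = 0.14). Without vehicle replicate 1 the list had 8 higher and 0 lower, and without any other single library but arachidonic acid replicate 1 it had 7 to 9 higher and 1 to 2 lower.

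Of the 13 tested death targets 8 rose, 3 fell and 2 did not pass, with a median of 0.34. The share called was 84.6%, beside 40.2% of all tested genes. Leaving out each library in turn gave 8 to 12 called in this list, 6 to 9 higher and 2 to 3 lower. Over all tested genes these omissions gave 2969 to 7746 called. Perp, a tetraspan membrane protein of desmosomes and p53-dependent death, was at 84.6, 114 and 108 FPKM with arachidonic acid and at 52.5, 51.9 and 53.3 FPKM with vehicle (log2 fold change 0.94, adjusted p = 0.0021). Aen, an apoptosis-enhancing nuclease, was at 61.2 ± 4.69 FPKM with arachidonic acid and 43.1 ± 2.40 FPKM with vehicle (adjusted p = 0.0049). The death receptor genes Fas and Tnfrsf10b and Pmaip1, which encodes the BH3-only protein NOXA, were named after their values were seen, and rose with log2 fold changes of 0.77, 0.96 and 0.90. Casp6, an effector caspase, fell, with 32.9 ± 9.94 FPKM with arachidonic acid and 59.3 ± 2.34 FPKM with vehicle (log2 fold change -0.87, adjusted p = 0.012). Trp53i13 also fell, by 0.39 on the log2 scale (adjusted p = 0.0073). The third gene to fall was Trp53i11, likewise named after its values were seen. It was at 6.67 ± 4.69 FPKM with arachidonic acid and 15.7 ± 0.912 FPKM with vehicle (log2 fold change -1.29, adjusted p = 0.031).

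Of the 14 tested repair and metabolic targets 6 rose, 2 fell and 6 did not pass, with a median of 0.44. The share called was 57.1%, beside 40.2% of all tested genes. Of the 14, 1 passed the filter through the arachidonic acid libraries. Tigar, a phosphatase that lowers the glycolytic regulator fructose-2,6-bisphosphate, was at 16.2, 21.3 and 20.7 FPKM with arachidonic acid and at 9.36, 10.5 and 9.76 FPKM with vehicle (log2 fold change 0.90, adjusted p = 0.0025). Rrm2b, the p53-inducible subunit of ribonucleotide reductase, was at 8.24 ± 1.25 FPKM with arachidonic acid and 3.86 ± 0.534 FPKM with vehicle (log2 fold change 0.92, adjusted p = 0.0039). The damage recognition gene Ddb2 fell by 0.26 on the log2 scale (adjusted p = 0.038), a call lost without each single library other than arachidonic acid replicate 1 (highest adjusted p = 0.13). Each of these 5 omissions left 5 higher and 0 lower in the list.

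Among 17 tested regulators of p53 itself, 2 rose, 3 fell and 12 did not pass, with a median of -0.07. The share called was 29.4%, below the 40.2% of all tested genes. Ppp1r13l, which encodes iASPP, an inhibitor of p53, was at 26.8, 42.1 and 39.2 FPKM with arachidonic acid and at 22.0, 20.3 and 17.0 FPKM with vehicle (log2 fold change 0.82, adjusted p = 0.013, and adjusted p = 0.0513 without vehicle replicate 3). The damage kinase gene Atr rose by 0.33 on the log2 scale (adjusted p = 0.031). The kinase gene Chek2 and Rchy1, which encodes a ubiquitin ligase for p53, fell by 0.26 and 0.25 (adjusted p = 0.019 and 0.029). These 3 calls were each lost without at least 3 of the libraries taken singly, with highest adjusted p-values of 0.11 for Atr, 0.073 for Chek2 and 0.11 for Rchy1. Between 1 and 2 regulators were called in all without any single library but arachidonic acid replicate 1. Without that one 9 were called, beside 59.8% of all genes tested in that setting. Cdkn2a, whose products include the MDM2 inhibitor p19ARF, was below the filter and was named after its values were seen. It was at 0.248, 0.257 and 0.518 FPKM with arachidonic acid and at 0.0612, 0.0313 and 0 FPKM with vehicle. These values rested on at most 22.0 fragments each and do not tell the transcripts of the gene apart.

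In the BCL2 family, whose members decide with BAX and PUMA on the integrity of mitochondria, 2 of 10 tested genes rose, 1 fell and 7 did not pass. The share called was 30%, below the 40.2% of all tested genes. The family member Bok was at 69.1, 87.1 and 80.9 FPKM with arachidonic acid and at 25.0, 18.7 and 19.1 FPKM with vehicle (log2 fold change 1.87, adjusted p = 0.00056). Bcl2l1, which encodes the BAX inhibitor BCL-XL, was at 40.2, 63.3 and 61.8 FPKM with arachidonic acid and at 27.8, 27.7 and 27.7 FPKM with vehicle (log2 fold change 0.94, adjusted p = 0.0069). The ratio of Bax to Bcl2l1 FPKM was 5.17, 4.27 and 4.74 with arachidonic acid and 4.99, 4.50 and 4.39 with vehicle, so that the groups overlapped. Against Mcl1, another inhibitor, which was not called (adjusted p = 0.61), Bax stood at 2.19, 3.06 and 3.09 with arachidonic acid and at 1.45, 1.33 and 1.25 with vehicle. Bmf, a BH3-only gene, fell, with 2.25 ± 0.409 FPKM with arachidonic acid and 4.70 ± 0.299 FPKM with vehicle. Without arachidonic acid replicate 1, 3 genes of the family were higher and 3 lower, beside 27.5% and 32.4% of all genes tested in that setting.

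**Figure D4:**
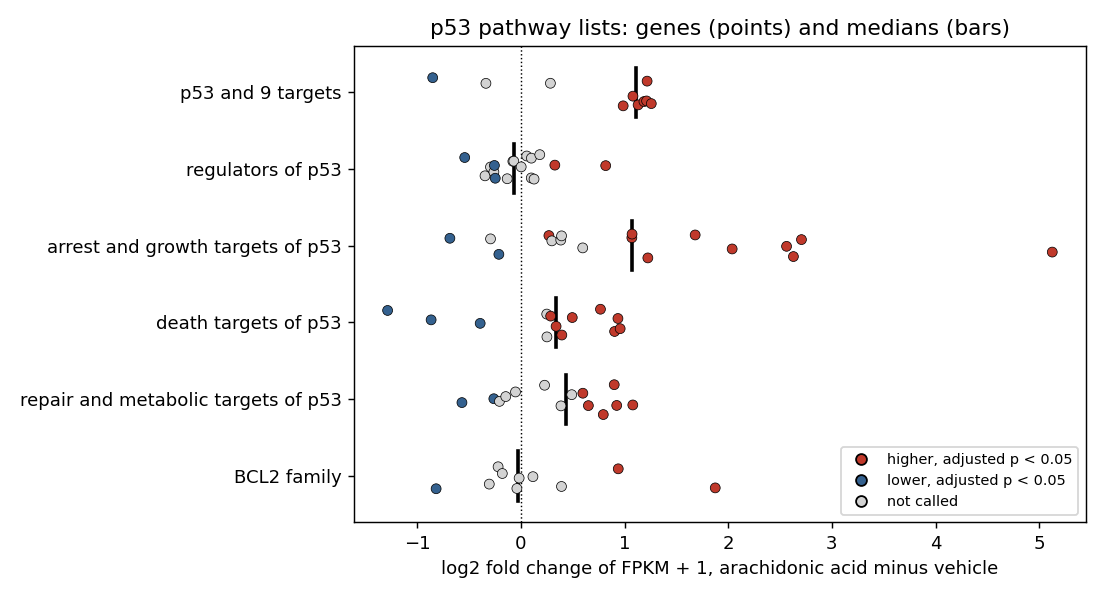
Log2 fold change of FPKM + 1, arachidonic acid minus vehicle, of each tested gene (points) of the p53 gene and its 9 targets and of 5 further lists, with the median of each list as a bar. The arrest and growth list has a median of 1.07 and the regulators of p53 one of -0.07.

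Over the 6 libraries, the tested genes with the pattern most like that of Trp53 were Ube2e1, Bub1b and Sdhc (Pearson r of log2(FPKM + 1) of 0.999 each). Those most like Mdm2 were Anxa5, Gstk1 and Enc1 (0.999 each). The coefficients describe libraries that fall into groups, with arachidonic acid replicate 1 between them, and 294 genes reached 0.98 with Trp53 and 805 with Mdm2.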

How the data were processed

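Total RNA of 6 organoid libraries was sequenced. The deposited values were taken as FPKM made by the authors, inferred from the values: multiplied by the mean transcript length in GENCODE M21, 96.3% to 96.7% of values under 100 fragments lay within 0.1 of a whole multiple of 1 step per library, which gave the depths. The submitters' processing notes name featureCounts 1.5.0-p3, StringTie 1.3.3b and HISAT2 2.0.5, without roles. The sources used here give no genome build, annotation or strand setting.

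Genes averaging at least 1 FPKM were kept and tested for the group effect on log2(FPKM + 1) with limma 3.58.1 (R 4.3.3), the variance following a trend with the mean. The Benjamini-Hochberg adjustment covered every tested gene. A fold change on this scale understates that of low genes. The fit was also run on simulated libraries with equal noise in each. These had few changed genes and no replicate that stood apart, so the run does not cover those features of the data. The 10 genes and the lists were chosen with earlier results of these data known, so they got no test of their own. Named beside the 10 genes were Cdkn1a, the 2 genes of smallest p per direction in each list, and the 3 genes most like Trp53 and Mdm2. A gene that this rule names is not reported here. Other genes are said to be named after their values were seen. Alternatives were another pseudocount, other filters, 3 scalings, limma-voom on recovered fragments, a replicate block and each library left out. Other steps ran in Python 3.11.15 (pandas 2.3.3, numpy 2.4.6, matplotlib 3.10.9).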

Additional observations from a re-analysis of the deposited data

How the results depend on the processing

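The 7 rises and the fall of Sesn1 kept their direction and their call under all 14 alternatives. With quantile normalization 2 of the 10 genes were called lower, the second being Trp53. Leaving out each library in turn gave 8 to 10 of the 10 genes called, 7 to 8 higher and 1 to 2 lower. Over the 5 other lists it gave 26 to 53 called, 22 to 36 higher and 4 to 17 lower, and rescaling to TPM gave 7 lower. Over all tested genes it gave 2969 to 7746 called, 1712 to 3554 higher and 1245 to 4192 lower, the most in each case without arachidonic acid replicate 1. The cause was not tested. The replicate numbers are shared by the groups, but the labels do not say that they pair cultures, so the main fit took none. Deviations from the group means correlated at -0.0811, 0.210 and -0.0623 for equal numbers and at -0.1769 to 0.1895 for unequal ones. With 3 libraries per group these values cannot decide whether the cultures were paired. With the replicate block 8 of the 10 genes were called, 7 higher and 1 lower, and 32 of the genes of the other lists, against 39 without it. Calls of named list genes lost outside the left-out libraries were those of Btg2, Chek2, Ddb2 and Rchy1 with TPM rescaling, Atr, Btg2, Ddb2 and Rchy1 with the block, and Atr and Ddb2 with no filter. The log2 fold change of Trp53 ranged from -0.49 to -0.26 over the alternatives and that of Bbc3 from 0.13 to 0.49. Each value of the 10 genes rested on at least 538 fragments.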
